A study of Mus musculus with 47 samples.

Results

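Gene expression after a PICK1 inhibitor and after saline was compared in the prefrontal cortex (PFC) of obese mice, with 8 libraries labelled PICK1i and 8 labelled Saline, chosen by their labels alone. They were 16 of the 47 libraries of the study, which also holds a PSD-95 inhibitor group and hippocampal libraries. The mice had diet-induced obesity and shared a cage in pairs. The treatment text describes daily injections over 5 days and death 2 hours after the last, with mPD5 at 56 mg/kg, UCCB01-147 at 25 mg/kg, or isotonic saline. From general knowledge of these compounds, mPD5 was taken as the PICK1 inhibitor and UCCB01-147 as the PSD-95 inhibitor. That text names whole hypothalamus and 6 saline mice, so whether its doses and times apply to these PFC libraries is uncertain. The sources used here give no strain, sex or age. Nor is it stated whether each library was a different animal, and p-values therefore describe the spread among these libraries.

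PICK1 is a scaffold protein with a PDZ domain that binds AMPA-type glutamate receptors and takes part in moving them to and from the synapse. Neurons answer strong synaptic input in waves of transcription. Immediate early genes need no newly made protein. They encode transcription factors (Fos, Egr and Nr4a families), feedback enzymes such as the Dusp phosphatases, and synaptic proteins such as Arc. A later wave encodes secreted and synaptic effectors such as Bdnf and Nptx2.

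Estimated counts summed to 5434477 to 11579503 per library. Excitatory neuron markers summed to 6953 to 11500 CPM (counts scaled to library size with TMM factors) after PICK1i, and 8631 to 9720 after saline, and both superficial- and deep-layer cortical markers were present in every library. No marker set separates prefrontal from other cortex here. Choroid plexus markers summed to at most 9.58 CPM, and Folr1, Prlr, Otx2 and Clic6 averaged under 1 CPM. Markers of neighbouring tissue stood apart in a pair of libraries. Olfactory markers summed to 445 CPM in PICK1i replicate 6, against 15.5 to 31.3 in the other PICK1i libraries. Striatal markers summed to 799.7 CPM in saline replicate 1, against 232 to 327 in the other saline libraries. The mitochondrial share was 16.7% in PICK1i replicate 1, against 8.21 to 11.6% in the rest of its group. In bulk tissue, fewer cells of a type and less RNA per cell cannot be told apart.

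Of 14911 genes tested, 30 differed (0.201%), of which 27 rose after PICK1i (0.181%) and 3 fell (0.0201%), by edgeR's quasi-likelihood test at a Benjamini-Hochberg adjusted p under 0.05. The genes that rose did so by 1.21- to 2.93-fold, with a median of 1.46-fold. Only 4 of them passed 2-fold, namely Arc, Fos, Egr2 and Dusp5, and 16 stayed under 1.5-fold. Size alone did not select these genes. Of the 47 genes with a log2 change beyond 1 in either direction, 4 passed the test, and the other 43 had a median standard error of 0.56 against 0.10 for the called genes. Over all genes the median log2 change was 0.01, and 52.2% of genes had a positive one. At an unadjusted p under 0.05 stood 852 genes (5.71%), 506 higher (3.39%) and 346 lower (2.32%).

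**Figure D1:**
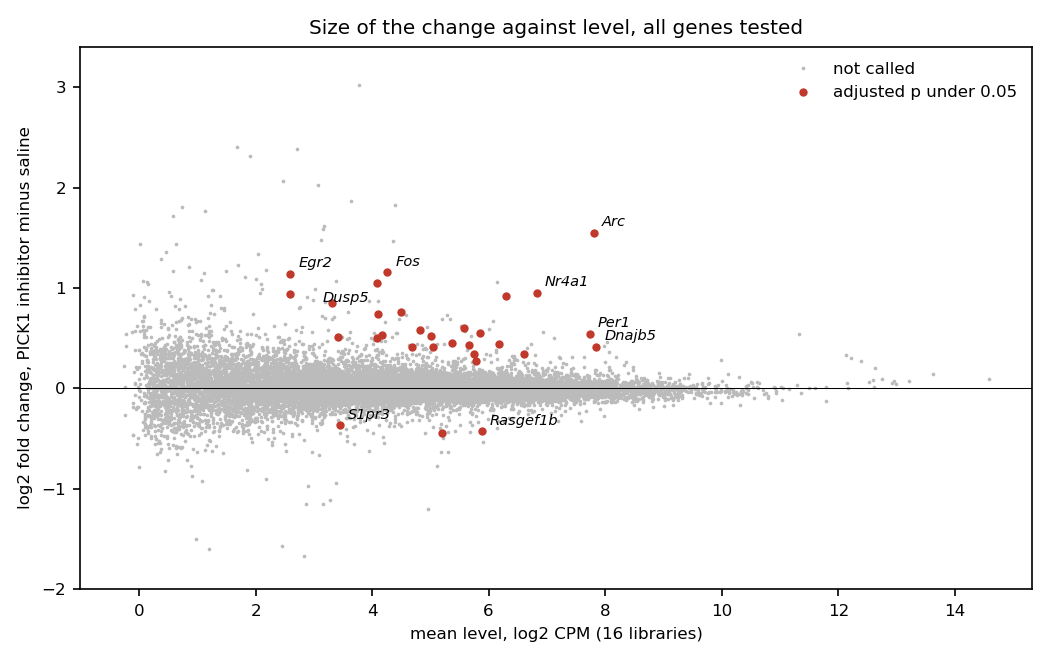
Log2 fold change after PICK1 inhibitor minus saline (vertical axis) against the mean level in log2 CPM over 16 libraries (horizontal axis) for the 14911 genes tested. Each point is a gene, with the 30 called genes in red. The genes that rose had mean saline levels from 3.75 to 197 CPM, and 43 of the 47 genes with a log2 change beyond 1 were not called.

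The rise was present in every PICK1i library. Of the 216 values that the 27 genes had in the 8 PICK1i libraries, 215 lay above the mean of saline. Taking for each library the median log2 deviation of these 27 genes from the saline mean, PICK1i libraries ran from 0.45 to 0.70 with a median of 0.60, saline libraries from -0.11 to 0.13, and PSD-95i libraries from -0.18 to 0.12. The weakest PICK1i library was replicate 5 (0.45) and the strongest was replicate 7 (0.70). Between 22 and 27 of the 27 genes exceeded the highest saline value in each PICK1i library, with 22 in replicate 1, 23 in replicates 5 and 6, and all 27 in replicates 3 and 7. These genes were chosen on the same contrast, so the values are a description. For 17 of the 27 genes all 8 PICK1i libraries lay above all 8 saline libraries, a separation that 21 of all genes tested showed (0.141%).

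**Figure D2:**
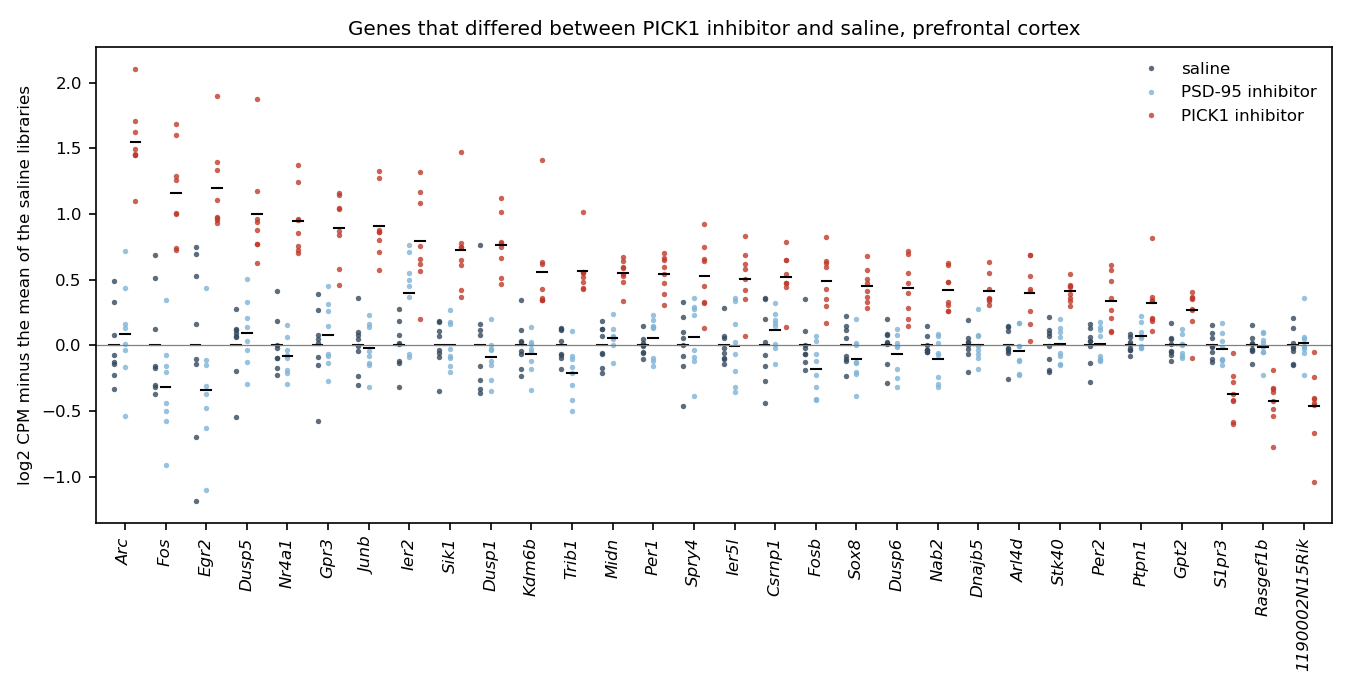
Log2 CPM of each library minus the mean of the 8 saline libraries (vertical axis) for the 30 called genes (horizontal axis), ordered by fitted change. Points are libraries, black bars are group means, and colours give saline, PSD-95 inhibitor and PICK1 inhibitor. PICK1 inhibitor means stand above saline for 27 genes and below it for 3. These groups do not overlap for 17 of the higher genes and 1 of the lower. The PSD-95 inhibitor libraries overlap the saline libraries.

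Among the 27 genes that rose, Arc, Fos and Egr2 of the rapid primary response had the largest log2 changes, followed by Dusp5. Arc, whose protein acts at active synapses and in receptor endocytosis, measured 239, 311 and 482 CPM (lowest, median and highest) after PICK1i and 88.5, 104 and 157 CPM after saline. The groups did not overlap, and the change was 1.55 on the log2 scale (standard error 0.16, edgeR adjusted p = 4.22e-06). The orphan nuclear receptor gene Nr4a1 measured 124, 143 and 198 CPM against 65.4, 73.5 and 102 CPM, again without overlap (log2 change 0.95, standard error 0.10, adjusted p = 2.17e-06). Replicate 7 was the highest PICK1i library for both genes, and replicate 8 the highest saline library.

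Junb and Fos encode partners in the AP-1 transcription factor. Junb measured 80.4, 98.1 and 135 CPM after PICK1i and 43.5, 54.7 and 69.03 CPM after saline. Fos measured 18.9, 25.3 and 37.1 CPM against 8.72, 10.1 and 18.5 CPM. Both were separated between groups, although the lowest PICK1i and the highest saline value of Fos lay close together. The log2 changes were 0.92 for Junb and 1.16 for Fos (standard errors 0.10 and 0.18, edgeR adjusted p = 4.22e-06 and 0.000901). Fosb, a further AP-1 gene, measured 15.6, 19.96 and 24.7 CPM against 12.1, 13.5 and 17.8 CPM and overlapped between groups (log2 change 0.50, adjusted p = 0.0110). Cages held pairs, but the labels do not say which libraries shared a cage. Neighbouring replicate numbers were summed as a guess at such pairs. With them summed, Fos and Fosb were not called (edgeR adjusted p = 0.113 and 0.0519). Fosb was not called with a replicate block either (0.0504). Summed, their log2 changes were 1.16 and 0.51.

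Egr2, a zinc finger transcription factor gene, measured 6.72, 7.30 and 13.4 CPM after PICK1i and 1.36, 3.505 and 5.89 CPM after saline, without overlap (log2 change 1.14, standard error 0.22, edgeR adjusted p = 0.0162). Its adjusted p was 0.113 with neighbouring numbers summed and 0.0504 with a replicate block. Differences between family members were not tested. Egr1, the most abundant of them, measured 253, 267 and 366 CPM against 158, 233 and 260 CPM and missed the threshold (log2 change 0.42, adjusted p = 0.137), as did Egr4 (0.44, adjusted p = 0.152) and Egr3 (0.19, adjusted p = 0.921). Nab2, which encodes a corepressor that binds Egr proteins, measured 51.9, 57.4 and 66.9 CPM against 41.7, 42.1 and 47.8 CPM, without overlap (log2 change 0.43, adjusted p = 0.000726). Ier2, an early gene of the same rapid list, reached 8.11, 11.6 and 17.9 CPM against 5.58, 7.08 and 8.56 CPM, and 7 of 8 PICK1i libraries exceeded every saline library (log2 change 0.85, adjusted p = 0.00256). Its adjusted p was 0.0537 without the 3 libraries that stood apart.

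The other Nr4a genes were not called. Nr4a3 had a log2 change of 0.23 (standard error 0.25, edgeR adjusted p = 0.971). Nr4a2 had one of -1.20 with a standard error of 0.59 (adjusted p = 0.884), and ranged from 5.33 to 68.3 CPM after PICK1i and from 2.86 to 88.6 CPM after saline. Both groups spread widely and overlapped. Jun was not higher either (log2 change -0.06, adjusted p = 0.979), and Npas4, an activity-dependent transcription factor gene of neurons, measured 16.9, 24.9 and 45.8 CPM against 12.4, 14.8 and 26.6 CPM (log2 change 0.69, standard error 0.21, adjusted p = 0.457).

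Genes whose products restrain MAP kinase signalling had 4 of 15 tested members higher, against 0.181% of all genes, 0 lower and a median log2 change of 0.15. All 4 are also counted below among the rapid or other early genes. This list, like the others, was made with results of these libraries known. Dusp5, a nuclear phosphatase gene for ERK, measured 16.9, 20.7 and 40.6 CPM after PICK1i and 7.38, 11.5 and 13.2 CPM after saline, without overlap (log2 change 1.05, standard error 0.15, edgeR adjusted p = 0.000316). Dusp1 measured 17.3, 21.3 and 27.4 CPM against 9.60, 12.1 and 21.2 CPM, and the groups overlapped through saline replicate 8 (log2 change 0.74, adjusted p = 0.00294). Dusp6, a cytoplasmic ERK phosphatase gene, and Spry4, a receptor signalling inhibitor gene, had log2 changes of 0.44 and 0.53 (adjusted p = 0.00998 and 0.0495). Dusp4 was separated between groups at 11.5 to 19.7 against 8.44 to 11.2 CPM, yet it missed the threshold (log2 change 0.56, adjusted p = 0.108). With neighbouring replicate numbers summed, Dusp1, Dusp6 and Spry4 were not called, at log2 changes of 0.74, 0.44 and 0.52.

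Among the 18 tested genes of cAMP and CREB signalling 2 rose, against 0.181% of all genes, and 0 fell, with a median log2 change of 0.02. The 2 genes, Gpr3 and Sik1, are also counted below among the other early genes. Gpr3 encodes a receptor that raises cAMP without a known ligand, and measured 5.70, 8.13 and 9.38 CPM against 2.65, 4.17 and 5.42 CPM. Sik1 encodes a kinase that is induced by cAMP and inhibits the CREB coactivators, and measured 21.7, 27.3 and 46.7 CPM against 13.1, 16.9 and 18.998 CPM. Both were separated between groups, with log2 changes of 0.94 and 0.76 (edgeR adjusted p = 0.000316 and 0.000726).

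Because CREB and serum response factor are textbook regulators of immediate early genes, the 250 bases before the RefSeq start sites (GRCm38.p6) were searched for their motifs. Promoters were matched by symbol for 20 of the 27 higher genes. Arc, Trib1, Sik1, Ier2, Kdm6b, Spry4 and Per2 were not matched. The core of the cAMP response element (CRE), TGACG on either strand, occurred in 14 of the 20 genes (70.0%), against 30.4% of the tested genes with a promoter and 19.8% of all genes in the table. The complete palindrome TGACGTCA, which holds the core on both strands, occurred in 2 of 20 against 3.12% of tested genes, and the CArG box of serum response factor in 2 of 20 against 1.43%. The promoters of the higher genes had a median GC content of 62.4%, and those of tested genes 60.0%. A match describes letters only and shows no binding. Below, 5 promoters are shown as examples of these motifs, chosen after the matches were seen: several CRE cores (Nr4a1, Fos), both CRE palindromes (Dusp1, Arl4d) and CArG boxes (Dusp5). They are written 5′ to 3′ on the coding strand, with capitals for CRE cores, CRE palindromes and CArG boxes.
Nr4a1, chr15:101266596-101266845, plus strand: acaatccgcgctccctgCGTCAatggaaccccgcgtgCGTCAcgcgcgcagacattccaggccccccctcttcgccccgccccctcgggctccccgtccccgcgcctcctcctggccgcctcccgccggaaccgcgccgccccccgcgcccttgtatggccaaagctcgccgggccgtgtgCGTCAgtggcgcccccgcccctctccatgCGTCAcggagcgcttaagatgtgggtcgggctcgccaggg
Fos, chr12:85473640-85473889, plus strand: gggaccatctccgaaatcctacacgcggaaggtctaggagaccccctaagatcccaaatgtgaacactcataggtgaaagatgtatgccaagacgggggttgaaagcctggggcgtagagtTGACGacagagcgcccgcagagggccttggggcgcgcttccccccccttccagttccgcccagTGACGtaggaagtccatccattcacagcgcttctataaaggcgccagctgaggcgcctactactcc
Dusp1, chr17:26508473-26508722, minus strand: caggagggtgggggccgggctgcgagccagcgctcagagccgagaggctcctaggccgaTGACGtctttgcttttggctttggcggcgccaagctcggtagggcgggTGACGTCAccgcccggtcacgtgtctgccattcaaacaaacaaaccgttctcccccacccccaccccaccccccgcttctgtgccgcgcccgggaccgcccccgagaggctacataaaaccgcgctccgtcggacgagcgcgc
Dusp5, chr19:53528895-53529144, plus strand: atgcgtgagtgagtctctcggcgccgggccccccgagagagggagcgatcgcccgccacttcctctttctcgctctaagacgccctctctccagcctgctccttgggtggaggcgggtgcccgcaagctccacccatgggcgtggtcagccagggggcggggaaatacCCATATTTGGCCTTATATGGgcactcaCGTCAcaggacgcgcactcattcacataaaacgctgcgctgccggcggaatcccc
Arl4d, chr11:101665291-101665540, plus strand: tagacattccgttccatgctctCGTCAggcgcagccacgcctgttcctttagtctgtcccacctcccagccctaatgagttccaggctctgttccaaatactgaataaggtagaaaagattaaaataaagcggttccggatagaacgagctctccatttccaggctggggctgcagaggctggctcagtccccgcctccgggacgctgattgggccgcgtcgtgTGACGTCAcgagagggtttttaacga

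Counting bases upstream from the start to the match's 5′ base, the 4 cores of Nr4a1 begin at 233, 213, 69 and 40, and those of Fos at 129 and 66. The palindrome of Dusp1 begins at 143, with a further core at 191. That of Arl4d begins at 26, with a further core at 228. In Dusp5, CArG boxes begin at 82 and 72 and overlap no CRE core, which begins at 55. Of the genes that fell, Rasgef1b has a core at 114, so the motif was not restricted to genes that rose. Of the matched higher genes, Ptpn1, Gpt2, Sox8, Dusp6, Nab2 and Ier5l lacked the core in this window.

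Outside the lists of activity genes, 8 genes rose and 3 fell. Dnajb5, which encodes a cochaperone of the Hsp40 family, measured 242, 251 and 305 CPM after PICK1i and 170, 198 and 224 CPM after saline, without overlap (log2 change 0.42, standard error 0.06, edgeR adjusted p = 0.000545). It was the only called gene of 21 tested chaperone genes, whose median log2 change was -0.01. Stk40, a pseudokinase gene, measured 34.9, 38.05 and 41.6 CPM against 24.6, 29.1 and 32.9 CPM and was separated too (log2 change 0.41, adjusted p = 0.000857).

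Sox8, which encodes a transcription factor of glia, measured 42.5, 47.3 and 55.9 CPM against 29.5, 34.5 and 40.6 CPM, without overlap (log2 change 0.45, standard error 0.08, edgeR adjusted p = 0.00163). Oligodendrocyte markers did not go the same way. All 12 had a negative log2 change (median -0.21), none passed the test, and their sum was 1943, 2348 and 3995 CPM after PICK1i and 1895, 3021 and 3543 CPM after saline. With the summed level of these markers as a covariate, a setting chosen after the data were seen, Sox8 stayed called, and 25 of the 30 genes did. The calls of Ptpn1, Kdm6b, Spry4, Per2 and Gpt2 ended there, at log2 changes of 0.31, 0.59, 0.48, 0.35 and 0.25, against 0.34, 0.60, 0.53, 0.35 and 0.27 without the covariate.

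Clock genes contributed Per1 and Per2, 2 of 21 tested against 0.181% of all genes, with a list median of 0.03. Per1, which activity and glucocorticoids also induce, measured 214, 257 and 282 CPM after PICK1i and 161, 173 and 191 CPM after saline, without overlap (log2 change 0.55, standard error 0.06, edgeR adjusted p = 8.94e-06). Per2 measured 91.6, 106 and 130 CPM against 70.3, 87.1 and 95.2 CPM and overlapped (log2 change 0.35, adjusted p = 0.0495). Of 23 tested glucocorticoid-responsive genes Per1 and Dusp1 rose (2 of 23, against the same 0.181%), with 19 positive and a median of 0.12. Per1 is also on the clock and other early lists, and Dusp1 on the MAP kinase and rapid lists. At an unadjusted p under 0.05 by edgeR, 7 of the 23 were higher, against 3.39% of all genes, and 0 lower. Fkbp5, a chaperone gene used as a marker of glucocorticoid action, measured 11.98 to 23.6 CPM against 12.1 to 17.5 CPM (log2 change 0.40, adjusted p = 0.504).

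Ptpn1 encodes a tyrosine phosphatase that acts on the insulin receptor, and Kdm6b a histone H3K27 demethylase. Ptpn1 measured 50.9, 57.2 and 83.4 CPM against 44.5, 46.97 and 50.03 CPM, and Kdm6b 47.7, 49.5 and 100.1 CPM against 31.8, 37.3 and 47.7 CPM. PICK1i replicate 6, the library with olfactory transcripts, was the highest for both. Without it their log2 changes were 0.26 and 0.43, against 0.34 and 0.60 with it, and both stayed called (edgeR adjusted p = 0.0156 and 0.00348). The same library was highest for Dusp5 and Sik1, whose changes without it were 0.87 and 0.62 and still called. The small GTPase gene Arl4d and the alanine aminotransferase gene Gpt2 had log2 changes of 0.41 and 0.27 (adjusted p = 0.0353 and 0.0496).

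Rasgef1b, which encodes an exchange factor for Ras-family GTPases, fell most firmly. It measured 39.3, 51.4 and 59.2 CPM after PICK1i and 61.1, 67.003 and 75.1 CPM after saline. All 8 PICK1i libraries lay below all saline libraries, as for only 2 of the genes tested (0.0134%), and the log2 change was -0.42 (standard error 0.06, edgeR adjusted p = 0.000545). The other 13 tested Ras exchange factors were not called. S1pr3, a sphingosine 1-phosphate receptor gene, measured 7.99, 9.26 and 11.8 CPM against 11.2, 12.2 and 13.6 CPM (log2 change -0.37, adjusted p = 0.0479). The gene 1190002N15Rik measured 20.3, 31.3 and 40.7 CPM against 37.9, 41.6 and 48.5 CPM (log2 change -0.45, adjusted p = 0.0353). In these genes 7 of 8 PICK1i libraries lay below every saline library.

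The calls differed in how firmly they stood. In 37 alternative analyses, 24 of which left out a single library, 14 of the 30 genes stayed called throughout, and 19 stayed called whichever library was left out. The libraries left out include those of PSD-95i, which are not in the comparison. In 1 alternative only the limit was raised, to an edgeR adjusted p under 0.1, where no call can be lost. The 14 were Nr4a1, Arc, Midn, Junb, Per1, Dusp5, Trib1, Gpr3, Dnajb5, Rasgef1b, Nab2, Sik1, Stk40 and Sox8. The least firm were S1pr3 and Gpt2, which lost their call in 28 of 37, Spry4 in 24, Per2 in 23, Csrnp1 in 18, Arl4d in 14, and Ptpn1, Kdm6b and 1190002N15Rik in 13 each. None of these genes changed sign. The number of called genes was 19 without saline replicate 2, and the number lower was 1 without saline replicate 1, 2, 5, 7 or 8 or PICK1i replicate 3, 4, 5, 7 or 8. Egr2 lost its call without saline replicate 2 or PICK1i replicate 7, and Ier5l without saline replicate 2.

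Counts of called genes differed between the early and late lists, a difference that was not tested. Of the rapid primary response list 8 of 19 tested genes rose, against 0.181% of all genes, and 0 fell, with 17 positive and a median log2 change of 0.50. Of other early response genes 11 of 41 rose and 0 fell, with 34 positive and a median of 0.23. Of 27 late response and secreted effector genes 0 passed in either direction, 18 were positive, and the median was 0.05, against 0.01 over all genes tested. Since 0.201% of all genes were called, a count of 0 among 27 is at the background. At an unadjusted p under 0.05 the 3 lists had 14, 21 and 4 genes higher, against 3.39% of all genes, so the late list also lay above that share. DESeq2 and limma voom also called 0 late genes. These lists were made with results of these libraries known, so the counts describe them and support nothing further.

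The other early genes that rose and are not yet described were Midn, Trib1, Ier5l and Csrnp1. Midn encodes midnolin, a nuclear protein that brings early gene products to the proteasome, and measured 59.4, 69.5 and 75.1 CPM against 40.6, 47.2 and 53.4 CPM (log2 change 0.55, standard error 0.06, edgeR adjusted p = 4.22e-06). Trib1, a pseudokinase gene, measured 30.6, 32.9 and 46.2 CPM against 20.03, 22.4 and 24.9 CPM (log2 change 0.58, adjusted p = 0.000316). Both were separated between groups. Ier5l and Csrnp1 had log2 changes of 0.52 and 0.51 (adjusted p = 0.0162 and 0.0409) and 7 of 8 PICK1i libraries above every saline library. Just beyond the threshold stood Fosl2 (0.61, adjusted p = 0.0807), Klf10 (0.63, adjusted p = 0.103), Bhlhe40 (0.36, adjusted p = 0.108), Tiparp (0.50, adjusted p = 0.108) and Plk3 (0.47, adjusted p = 0.137). Klf6 had the opposite sign (-0.27, adjusted p = 0.137), at 50.4 to 69.7 against 65.1 to 80.9 CPM.

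Late genes were abundant enough to be measured. Bdnf, which encodes a neurotrophin, measured 22.6, 35.1 and 39.9 CPM after PICK1i and 25.6, 30.8 and 40.7 CPM after saline (log2 change 0.09, standard error 0.09, edgeR adjusted p = 0.971). Nptx2, which encodes a secreted pentraxin that gathers AMPA receptors, measured 44.98, 55.2 and 66.5 CPM against 37.2, 48.1 and 64.1 CPM (0.14, standard error 0.10, adjusted p = 0.941). The groups overlapped widely in both genes. Vgf, a neuropeptide precursor gene, and Pcsk1, a prohormone convertase gene, had log2 changes of 0.21 and 0.36 (adjusted p = 0.764 and 0.742). Grasp, a scaffold gene, had one of 0.26 (adjusted p = 0.351), and Sorcs3, a sorting receptor gene, one of -0.21 (adjusted p = 0.308). Cdkn1a had the largest late value, 0.67, with a standard error of 0.23 (adjusted p = 0.645). A p above the threshold does not show that these genes were alike between groups.

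**Figure D3:**
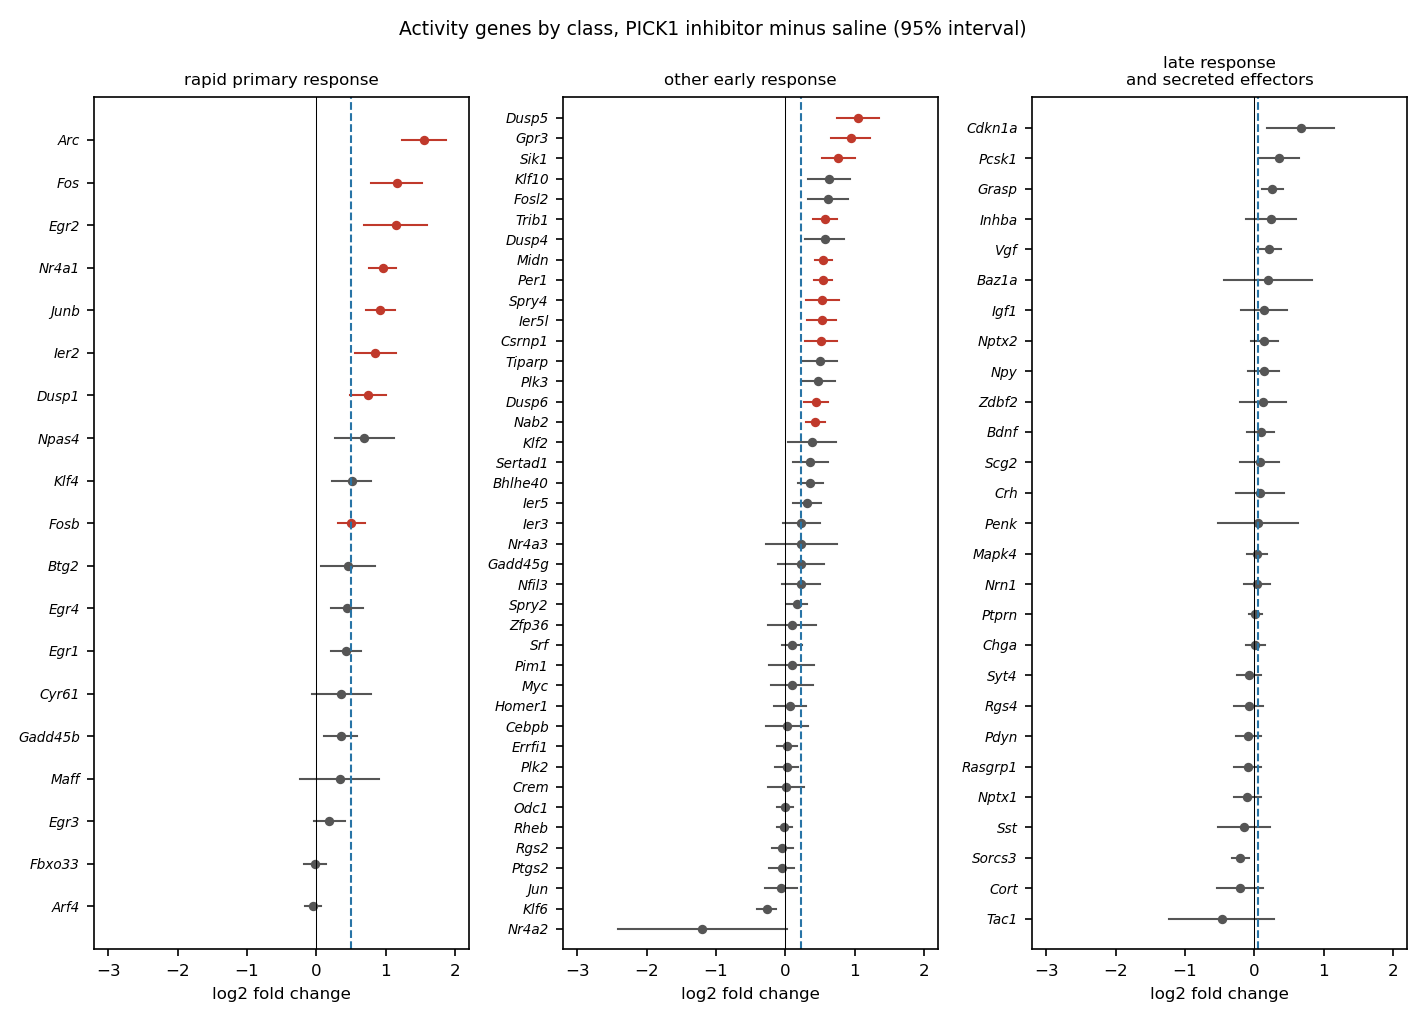
Log2 fold change after PICK1 inhibitor minus saline with its 95% interval (horizontal axis) for each tested gene of 3 lists. Red marks genes with an adjusted p under 0.05, and the dashed line is the list median. The medians are 0.50, 0.23 and 0.05, and red genes appear in the rapid and other early lists and not among the late genes.

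Pick1 itself measured 41.8, 50.9 and 59.9 CPM after PICK1i and 41.4, 49.4 and 52.8 CPM after saline (log2 change 0.07, 95% interval -0.06 to 0.21). Dlg4, which encodes PSD-95, had a log2 change of 0.08. Of 22 tested genes of AMPA receptors and their trafficking 0 passed in either direction, with a median of 0.03. Since 0.201% of all genes were called, a count of 0 among 22 is at the background. The smallest unadjusted p among them was 0.113, for the scaffold gene Dlg1 (log2 change -0.09, edgeR adjusted p = 0.925).

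At an adjusted p from 0.05 to 0.1 stood Insm1, Usp36, Tet3, Gm28151, Fosl2 and Nkd2, of which Fosl2 is on a list of early genes. Insm1, a zinc finger gene of neuroendocrine development, was separated between groups at 8.20, 9.29 and 10.5 CPM against 4.85, 6.34 and 8.17 CPM (log2 change 0.56, edgeR adjusted p = 0.0645). Usp36, a deubiquitinase gene, and Tet3, which encodes an enzyme that oxidises methylated cytosine, had log2 changes of 0.24 and 0.33 (adjusted p = 0.0645 and 0.0646). Nkd2, a Wnt pathway inhibitor gene, had one of 0.74 (adjusted p = 0.0886).

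The genes that rose were short. In the GENCODE M21 annotation of GRCm38 the 27 genes had a median length of 9612 bp, from 1522 bp for Ier2 to 56539 bp for Dusp1, against 22808 bp over 14826 tested genes found there. The length of Dusp1 is that of its annotated span, which extends to 26562128, beyond the RefSeq promoter shown above. Its longest transcript has 2313 nt in 3 exons. Their longest transcript had 4 exons or fewer in 17 of 27 (63.0%), against 34.7% of tested genes. All 27 are annotated as protein coding. Arc lies at chromosome 15, 74669083 to 74672570 (minus strand, 3 exons), Fos at chromosome 12, 85473890 to 85477273 (plus strand, 4 exons), and Junb at chromosome 8, 84974484 to 84978718 (minus strand, 1 exon). Exons of Junb, Dusp5, Gpr3, Nab2, Sox8, Dusp1, Kdm6b, Csrnp1 and S1pr3 overlap exons of a gene on the other strand, as Junb does with Prdx2 and Nab2 with Stat6. The library kit keeps strand, but the sources used here do not say how the counting treated it, so reads of such pairs may be mixed.

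Transcript-level counts come from the same libraries and reads as the gene counts, so the overlap of their calls is no separate evidence. Of 36128 transcripts tested, 30 were called (0.083%), 28 higher after PICK1i (0.0775%) and 2 lower (0.00554%), against 4.4% at an unadjusted p under 0.05. They belonged to 22 genes, of which 21 were also called as genes. The 27 higher genes had 52 tested transcripts, of which 28 were called and 51 had a positive log2 change. That direction was largely set by choosing these genes as higher. By annotated type, 23 of 41 protein coding transcripts of these genes were called, 3 of 3 with a retained intron, 1 of 2 subject to nonsense-mediated decay and 1 of 6 processed transcripts. The number of called transcripts was 19 without PICK1i replicate 7.

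In Arc, Per1 and Fos the called transcripts rose by like amounts. Of the transcripts of Arc, Arc-202 (ENSMUST00000110009) measured 195, 266 and 402 CPM against 76.4, 87.1 and 128 CPM, and Arc-201 measured 43.9, 52.4 and 81.9 CPM against 13.4, 19.2 and 28.9 CPM. Their log2 changes were 1.57 and 1.49 (edgeR adjusted p = 1.23e-05 and 1.26e-05), and Arc-202 held 83.1% ± 1.27 of the gene's tested counts after PICK1i and 82.6% ± 1.495 after saline (SD, n = 8). Per1 had 5 tested transcripts with log2 changes from 0.45 to 0.63, of which 3 were called. Per1-203 held 73.01% ± 1.82 and 72.8% ± 1.94 of counts in the same order. The coding Fos-201 and the noncoding Fos-202 rose by 1.14 and 1.33 (adjusted p = 0.00107 and 0.0210).

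Transcripts that keep an intron were among those called in Dnajb5 and Dusp1, without a detectable difference in usage. Dnajb5-206 measured 33.5, 37.7 and 54.1 CPM after PICK1i and 16.6, 27.9 and 31.7 CPM after saline, without overlap (log2 change 0.61, edgeR adjusted p = 0.0188), while the coding Dnajb5-204 had a log2 change of 0.40 (adjusted p = 0.00635). Its share of the gene's counts was 15.2% ± 1.39 after PICK1i and 13.3% ± 2.18 after saline (SD, n = 8), and the test of its usage against the gene's other transcripts gave an unadjusted p of 0.0923. For Dusp1, the intron-keeping Dusp1-203 and Dusp1-204 were called (log2 changes 0.78 and 0.86, adjusted p = 0.0236 and 0.0210) and the coding Dusp1-202 was not (0.66, adjusted p = 0.0758). Dusp1-202 held 42.4% ± 4.18 of the gene's counts after PICK1i and 44.15% ± 3.34 after saline (SD, n = 8), and its usage test gave an unadjusted p of 0.594.

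**Figure D4:**
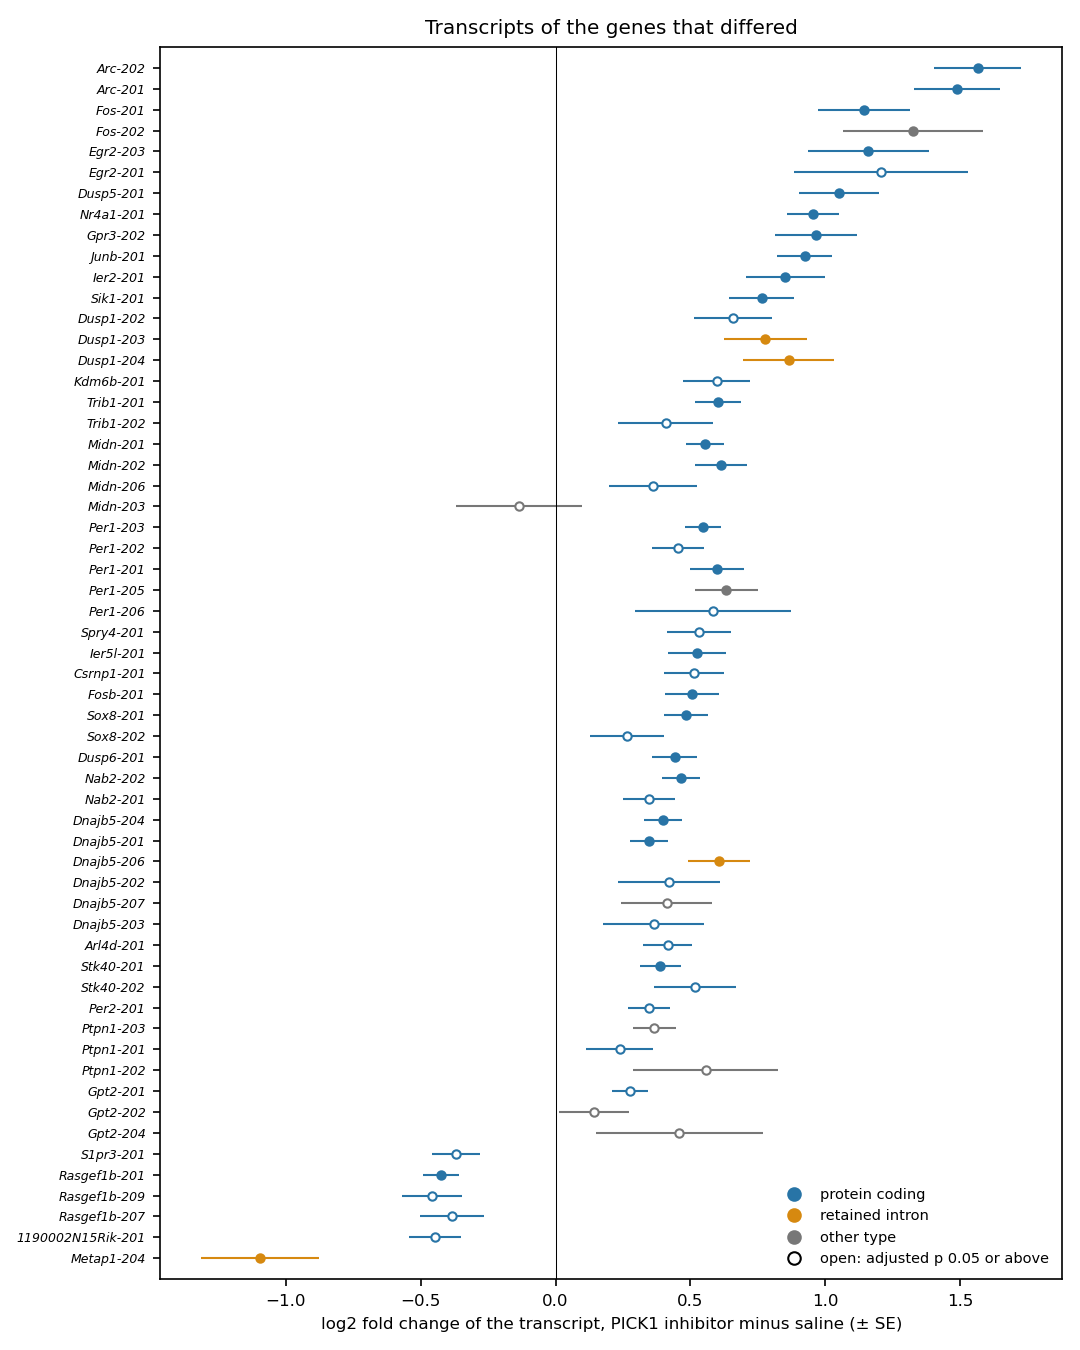
Log2 fold change of each tested transcript with its standard error (horizontal axis) for the called genes and Metap1 (rows), coloured by annotated type. Filled points have an adjusted p under 0.05. Values run from 1.57 for Arc-202 down to -1.10 for Metap1-204, and Midn-203, at -0.13, lies apart from Midn-201 and Midn-202 at 0.55 and 0.61.

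Usage of transcripts within genes was not detectably different. Of 7943 genes with at least 2 tested transcripts, 0 passed by the Simes test of edgeR (smallest adjusted p = 0.672), 25 were at an unadjusted p under 0.05 (0.315%), and limma's test also gave 0 (smallest adjusted p = 0.123). Evenly spread p-values would put about 397 genes under that unadjusted limit. The Simes test was thus conservative here, and its count of 0 does not show that usage was alike. The gene-level F test called 1 (0.0126%), Metap1, which encodes a methionine aminopeptidase (adjusted p = 0.0337). Its retained-intron transcript Metap1-204 measured 0.464, 0.713 and 1.04 CPM after PICK1i and 0.948, 1.51 and 2.28 CPM after saline, nearly without overlap (log2 change -1.10, adjusted p = 0.0268). Its share of the gene's counts was 2.47% ± 0.70 against 5.83% ± 1.58 (SD, n = 8). It is a low transcript, and its call ended in 15 of the 29 alternatives that tested it. Of the 14 called genes with several transcripts, Midn had the smallest Simes p, 0.0200 unadjusted, through the noncoding Midn-203, which had a log2 change of -0.13 while the coding Midn-201 and Midn-202 rose by 0.55 and 0.61.

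Against the PSD-95 inhibitor, 39 genes were higher after PICK1i (0.262%) and 11 lower (0.0738%), by edgeR's test. This comparison and the one with saline use the same PICK1i libraries, so their overlap is no separate evidence. Of the 27 genes that rose against saline, 23 were also higher than after PSD-95i, and 2 of the 3 that fell were lower. The 4 others were Ier2, Ptpn1, Csrnp1 and Spry4. Ier2 differed by 0.43 on the log2 scale (adjusted p = 0.288) and measured 6.59, 9.86 and 12.1 CPM after PSD-95i, between the other groups. For the 27 genes the PSD-95i change against saline ran from -0.42 to 0.43 with a median of 0.01. The number of genes called between the inhibitors was 83 without PSD-95i replicate 6, and 80 with a replicate block.

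In hippocampus 0 genes were called for PICK1i against saline by edgeR. The same 27 genes were positive there in 19 cases, with a median log2 change of 0.07, against 0.003 over all genes. At an unadjusted p under 0.05 by edgeR stood 3 of the 27, against 836 of all 15658 genes. The change was larger in PFC for all 27, a direction partly set by choosing them in PFC. A test of the difference itself passed for 1 of 15658 genes (0.00639%), Per1, and 3.86% of genes stood at an unadjusted p under 0.05 by edgeR. Per1 had log2 changes of 0.55 in PFC and 0.01 in hippocampus, a difference of 0.54 (standard error 0.10, edgeR adjusted p = 0.0282). This test treated all libraries as independent, and it is not stated whether both tissues came from the same mice. Hippocampal Per1 measured 129 ± 18.1 CPM after PICK1i (SD, n = 8) and 128 ± 8.15 CPM after saline (n = 7). Arc had the larger difference, 1.55, but a standard error of 0.32 (adjusted p = 0.148), with hippocampal levels of 114 ± 69.9 CPM (n = 8) and 114 ± 23.8 CPM (n = 7). The call of Per1 ended in 21 of 35 alternatives, in which the difference ran from 0.50 to 0.59. Without hippocampal PICK1i replicate 2, 8 genes passed this test, and without any of 20 other single libraries none did.

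**Figure D5:**
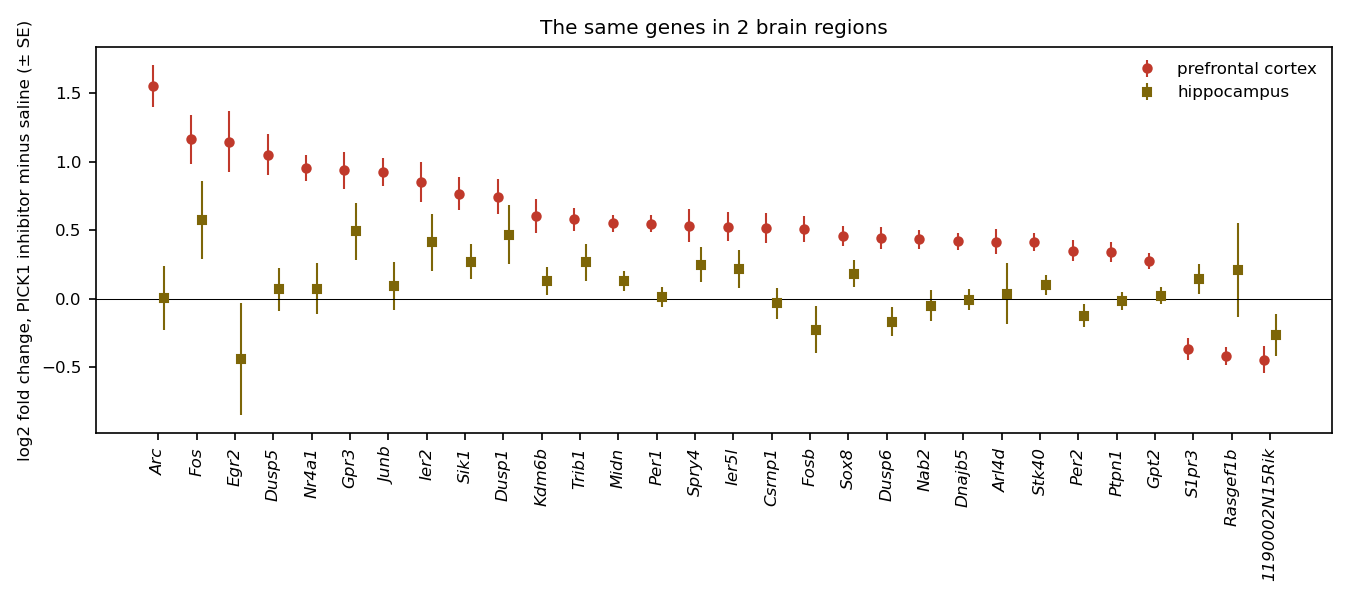
Log2 fold change after PICK1 inhibitor minus saline with its standard error (vertical axis) in PFC (circles) and hippocampus (squares) for the 30 genes called in PFC (horizontal axis). Hippocampal values lie nearer to 0 for most genes. The PFC errors come from the fit of PFC libraries alone, and the hippocampal errors from the fit over both tissues. Their widths can therefore not be compared between tissues.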

How the data were processed

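Polyadenylated RNA was sequenced as 52-bp paired-end reads after a stranded TruSeq protocol, per the labels' protocols. Reads were handled with bcl2fastq 2.20.0, STAR and Salmon on GRCm38, per the submitters' processing notes. The authors deposited the resulting estimated counts of 45706 genes and 109617 transcripts, not scaled between libraries as far as the values show. They were rounded to whole numbers here. All 24 PFC libraries in 3 groups entered 1 fit of edgeR 4.0.16 (TMM, filterByExpr with minimum count 10 and minimum total 15, robust quasi-likelihood F test, two-sided), in R 4.3.3. An adjusted p under 0.05 was called. Transcripts were fitted likewise, usage with diffSpliceDGE, and the difference between tissues over all 47 libraries. CPM are TMM-scaled. Log2 levels used a prior count of 2.

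The members and gene lists were chosen with earlier results of these data known. Named genes were every called gene, Pick1, Dlg4, up to 6 further members of each list in order of p, members of the 3 activity lists with an absolute log2 change of 0.3 or more, and the next 10 genes by p. Egr3, Nr4a3, Jun and Bdnf fall outside this rule and were chosen after their values were seen. Alternatives used RLE scaling, other filters, DESeq2 1.42.0, limma 3.58.1, sva 3.50.0 with 2 surrogate variables, a replicate block, summed neighbouring replicates and left-out libraries. Fits were tested on simulated data. No libraries within a group were alike within counting noise (smallest chi-square per gene 3.18). Promoters came from RefSeq on GRCm38.p6, positions from GENCODE M21, which held 14826 of 14911 tested gene IDs.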

Additional observations from a re-analysis of the deposited data

Results flagged for a closer look

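In groups of 8 libraries, 11 of 72 sets of values examined held a library far from the rest. The limit used gives about 1 in 20 for independent, normally distributed values. These sets share libraries and are mostly CPM without a log scale, so that rate need not apply to them. PICK1i replicate 6 was far above its group for Dusp5 (40.6 CPM, others 16.95 to 24.9), Kdm6b (100.1 CPM, others 47.7 to 58.3), Ptpn1 (83.4 CPM, others 50.9 to 61.1) and Sik1 (46.7 CPM, others 21.7 to 28.9), and for summed olfactory markers (445 CPM, others 15.5 to 31.3). All 4 genes stayed called without it. PICK1i replicate 7 was far above for Egr2 (13.4 CPM, others 6.72 to 9.39) and Trib1 (46.2 CPM, others 30.6 to 33.5). Without it the adjusted p of Egr2 was 0.0509 by edgeR. PICK1i replicate 1 had a mitochondrial share of 16.7% (others 8.21 to 11.6%). Among saline libraries, replicate 8 was far above for Dusp1 (21.2 CPM, others 9.60 to 13.9), replicate 3 for Ier5l (32.1 CPM, others 23.9 to 27.7), and replicate 1 for summed striatal markers (799.7 CPM, others 232 to 327).

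The PICK1i effect on Per1 differed between PFC and hippocampus by 0.54 on the log2 scale in the test of that difference.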

How the results depend on the processing

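Of 65 genes followed through 37 alternatives, none changed sign. In 1 of these only the limit was raised, so no sign could change there. Some genes named above, such as Nr4a3, Fkbp5 and Dlg1, were not among them. For PICK1i against saline, 30 genes (27 higher, 3 lower) became 46 with DESeq2 (6 lower), 55 with 2 surrogate variables (44 higher, 11 lower) and 17 with neighbouring replicate numbers summed (15 higher). A fit of only the groups compared, without the PSD-95i libraries, called 22 genes, 20 of them among the 30, with 1 lower. Egr2, Ptpn1, Kdm6b, Arl4d, Csrnp1, Spry4, Per2, Gpt2, S1pr3 and 1190002N15Rik lost their call there. Leaving out each library in turn gave 19 to 35 genes, 18 to 32 higher and 1 to 5 lower. Against PSD-95i, 50 genes became 98 with DESeq2, 80 with the replicate block, 29 with summed numbers, 86 at an adjusted p under 0.1, and 36 to 83 with a library left out. The 30 transcripts became 46 with DESeq2, 19 with summed numbers and 19 to 37 with a library left out. The 1 gene that differed between tissues became 0 without a count filter, 2 with DESeq2 and 0 to 8 with a library left out. Usage gave 0 genes in all 22 alternatives by the Simes test (with limma in 1 of them). The gene-level F test was not run under them. The cause of these changes was not tested.

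Libraries with the same replicate number were not treated as paired, and the labels do not say whether they were. Their deviations correlated at -0.182 to 0.361 (median 0.06), and 2 of 8 pairs exceeded 0.1. Neighbouring replicate numbers within a group correlated at -0.267 to 0.164 (median -0.0961). Other pairs within a group correlated at -0.55 to 0.0922 (median -0.153). Such correlations cannot settle whether libraries were paired. With a replicate block, 26 genes and 29 transcripts were called for PICK1i against saline, 21 and 26 of them among those called without it, 0 genes for usage, and 1 gene between tissues. Without saline replicate 1 and PICK1i replicate 6, 33 genes were called, 26 of them among the 30, and 38 (27 of the 30) with PICK1i replicate 1 left out too, an analysis added after the data were seen. Rapid genes that rose numbered 4 to 9, other early genes 8 to 17 and late genes 0 over all alternatives. Depth limits low genes most, whose standard errors were largest.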
